A study of Mus musculus with 8 samples.

Results

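Kinesins are motor proteins that move along microtubules. The kinesins and kinesin light chains of mouse were described in whole uterus and whole maternal brain on day 4 of pregnancy, from the genes whose symbol is Kif with a number and at most 1 letter, or begins with Klc and a digit. This rule took 41 of the 19884 genes of the count table and used no measured value. The uterus libraries came from 4 pregnant wild-type C57BL/6J mice and the brain libraries from 4, aged 6 to 10 weeks, untreated, mated with fertile males and with blastocysts present in the uterine flush. Every library therefore came from a pregnant animal, and no tissue of a non-pregnant mouse was compared. The brain was taken whole, and the uterus was taken whole after its connective tissue had been trimmed off. The labels do not say whether the brains and uteri came from the same mice.

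Transport kinesins carry vesicles, mitochondria and other cargo along the microtubules of long cells, above all the axons and dendrites of neurons, and kinesin light chains hold cargo on the kinesin-1 heavy chains. Mitotic kinesins act in dividing cells, where they build the spindle, move chromosomes and complete cytokinesis. Other kinesins work in cilia, and a few shorten microtubule ends or have lost motor activity. By these textbook roles the 41 genes fell into 15 transport heavy chains, 4 light chains, 11 mitotic kinesins, 6 ciliary kinesins and 5 others.

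Total counts ran from 35394603 to 40254254 in the uterus libraries and from 40115616 to 47790178 in the brain libraries. Levels are CPM, the count in proportion to a standard library size, scaled by TMM, a method that corrects for differences in RNA composition. A count of 0 allows up to 3 counts, or 0.0628 to 0.0848 CPM in a library by total counts before TMM scaling, counting error only. The organs carried their defining markers. All 8 neuronal markers were higher in brain by the edgeR test, with a summed level of 164 to 196 CPM in uterus and 7534 to 7667 CPM in brain, and Map2 alone held 160 to 189 CPM of the uterine sum. Smooth muscle, stromal and epithelial markers of uterus were higher in uterus in 15 of 15 cases. Uterus library 3 was low in every mitotic kinesin, and uterus library 4 was high in Kif5c, so the mitotic kinesins and their partners are also given without library 3, and Kif5c and the kinesin-1 shares without library 4.

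The start regions of 7 mitotic kinesins are shown because they share a short word, TTTGAA, close to the annotated start. It is the core of an element (the cell cycle homology region) known from promoters of genes transcribed late in the cell cycle. The regions run from 80 bases before the RefSeq start to 25 bases from it, 105 bases each, on GRCm38.p6, 5′ to 3′ in the direction of the gene. Capitals mark TTTGAA and CCAAT on either strand, so TTCAAA and ATTGG mark the same words on the opposite strand. The transport kinesins Kif3c and Kif5c are shown beside them for contrast, with no match.
Kif11 (chr19:37376302-37376406, plus strand): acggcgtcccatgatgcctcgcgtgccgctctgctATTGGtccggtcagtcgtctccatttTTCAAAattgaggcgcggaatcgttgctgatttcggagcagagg
Kif22 (chr7:127042396-127042500, minus strand): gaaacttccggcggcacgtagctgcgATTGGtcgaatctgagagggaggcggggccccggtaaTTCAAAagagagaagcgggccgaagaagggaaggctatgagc
Kif15 (chr9:122951001-122951105, plus strand): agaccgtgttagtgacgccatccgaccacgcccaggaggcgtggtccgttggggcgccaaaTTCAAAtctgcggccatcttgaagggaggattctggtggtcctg
Kif23 (chr9:61946775-61946879, minus strand): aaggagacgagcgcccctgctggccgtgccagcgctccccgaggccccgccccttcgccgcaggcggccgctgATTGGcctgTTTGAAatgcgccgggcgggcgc
Kif18b (chr11:102925100-102925204, minus strand): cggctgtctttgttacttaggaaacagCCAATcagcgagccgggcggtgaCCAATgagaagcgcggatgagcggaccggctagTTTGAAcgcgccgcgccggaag
Kif4 (chrX:100625985-100626089, plus strand): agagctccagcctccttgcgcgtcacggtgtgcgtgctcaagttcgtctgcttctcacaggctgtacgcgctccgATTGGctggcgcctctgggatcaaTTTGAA
Kif20b (chr19:34922278-34922382, plus strand): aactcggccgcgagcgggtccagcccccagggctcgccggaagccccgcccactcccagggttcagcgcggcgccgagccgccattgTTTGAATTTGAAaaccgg
Kif3c (chr12:3365052-3365156, plus strand): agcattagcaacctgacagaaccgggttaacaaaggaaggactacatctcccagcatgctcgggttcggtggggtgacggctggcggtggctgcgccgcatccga
Kif5c (chr2:49619206-49619310, plus strand): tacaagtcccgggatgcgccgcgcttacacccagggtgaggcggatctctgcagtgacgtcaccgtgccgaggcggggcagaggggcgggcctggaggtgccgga

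Positions are counted from the annotated start as 1, with negative positions before it. The match nearest the start began at -19 in Kif11 and Kif15, at -17 in Kif22, at 3 in Kif23, at 4 in Kif18b and at 20 in Kif4, while Kif20b held adjoining matches at 8 and 14. Of the 41 genes, 34 had a promoter in the RefSeq table of 32851 promoters, each covering 250 bases before to 50 bases after the start. TTTGAA, searched on both strands, stood in 9 of 10 mitotic kinesin promoters and in 17.9% of all promoters of that table. Kif18a held no match, and Kif2c and Kif14 held theirs farther out, at -103 and -228. Within 50 bases on either side of the start the word stood in 7 of 10 mitotic kinesin promoters against 4.94% of all promoters. That window and the genes shown were chosen after the matches had been seen. Among the transport heavy chains 1 of 13 promoters held the word, an alternative start of Kif1a, at -44. Of the other kinesins 1 of 6 promoters held it, that of Kif26b, at -9. Of the ciliary kinesins 1 of 6 did, that of Kif27, farther out. Kif1a and Kif26b were both higher in brain, so the word near the start was not confined to mitotic kinesins. The mitotic partner genes held the word in 12 of 17 promoters. CCAAT, also searched on both strands, stood in 6 of 10 mitotic kinesin promoters and in 37.4% of all, and none of its matches overlapped TTTGAA in these 10. CCAAT also stood in 12 of 15 promoters of the intraflagellar transport genes described below and in 4 of 13 of the transport heavy chains. A variant of the first word, TTCGAA, stood in none of the 10 mitotic kinesin promoters and in 1.56% of all promoters. A match is a run of letters and does not show that a protein binds there.

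The comparison of uterus with brain asks which kinesins each organ expresses above the other. All 11 genes listed as mitotic kinesins were higher in uterus, while 12 of 15 transport heavy chains and 3 of 4 light chains were higher in brain. Kif2a, which also acts at spindle poles, was listed among the other kinesins and was higher in brain. The role groups were chosen with earlier results of these data known. Differences ran from a log2 fold change, uterus over brain, of -8.93 for the axonal motor Kif5a to 5.48 for Kif2c, which takes down microtubules at the kinetochore. Of the 41 genes 39 were tested, all but Kif12 and Kif2b. By the edgeR quasi-likelihood test with Benjamini-Hochberg adjustment over all 16074 genes, 17 kinesins stood higher in uterus and 20 in brain, and Kif13a and Kif27 did not pass. Among all genes tested, 43.5% stood higher in uterus and 43.6% in brain, or 87.0% in either direction, and 37 of 39 kinesins called is a share of that order. Against a change of at least 2-fold, 13 kinesins passed as higher in uterus and 15 as higher in brain, where 23.5% and 25.8% of all genes did. All 4 uterus libraries stood above all 4 brain libraries in 17 kinesins and below them in 20, against 42.0% of all genes in each direction. The median log2 fold change was 4.00 over the mitotic kinesins and -3.002 over the transport heavy chains, against 0.012 over all genes tested. Whole organs were measured, so fewer cells of a type and less RNA per cell cannot be told apart.

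**Figure D1:**
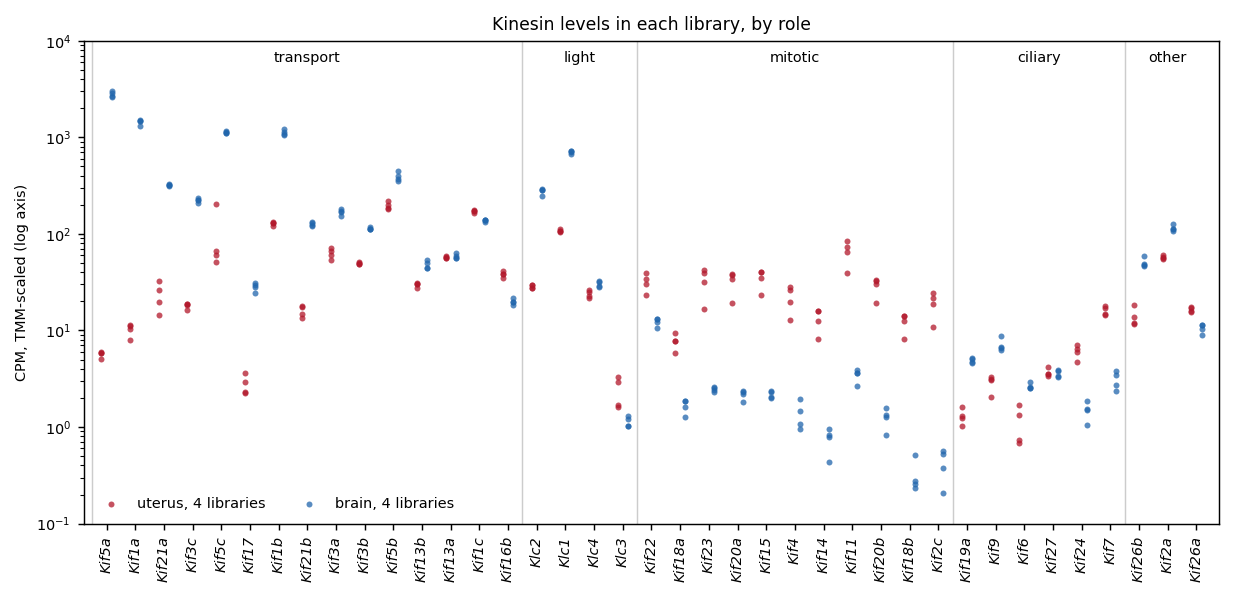
Level of each kinesin in CPM on a log axis, grouped by role, for the genes above 0 in all 8 libraries. Each point is a library, with uterus libraries left of brain libraries; the mitotic kinesins sit higher in uterus throughout, and Kif5a sits near 6 CPM in uterus against 2615 to 3031 CPM in brain.

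Kinesin reads as a whole took a smaller part of the uterine libraries. The 41 genes summed to 1354 to 1656 CPM in uterus, against 9120 to 9570 CPM in brain. At a limit of 1 CPM in all 4 libraries, 38 of the 41 genes were detected in uterus, where 67.1% of all genes in the table were, and 34 in brain, where 69.5% were. The 3 below that limit in uterus were Kif6, Kif12 and Kif2b. In brain the 7 were Kif12 and Kif2b again and the mitotic kinesins Kif2c, Kif4, Kif14, Kif18b and Kif20b. Kif2b had 0 counts in all 8 libraries, and Kif12 reached at most 0.0946 CPM in any of them.

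Kif5a encodes a neuronal heavy chain of kinesin-1 that carries neurofilaments and other cargo in axons (ENSMUSG00000074657, chromosome 10, 127225696 to 127263348, GRCm38). It stood at 5.11, 5.90, 6.01 and 5.90 CPM in uterus libraries 1 to 4, against 2885, 2615, 3031 and 2675 CPM in brain libraries 1 to 4. The organs were far apart and the libraries of each were close together. The log2 fold change was -8.93 ± 0.11 (SE, adjusted p = 2.8e-12), a level 489-fold lower in uterus, and it was the largest absolute difference of the 39 kinesins tested. Per kb of merged exon it was the most abundant kinesin of brain, at 401 ± 27.5 CPM per kb (SD, n = 4), and ranked 32 of 41 in uterus at 0.82 ± 0.060 CPM per kb.

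Kif5b, the kinesin-1 heavy chain found in most cell types, differed far less. It stood at 187, 182, 200 and 220 CPM in uterus, against 446, 356, 393 and 368 CPM in brain. The libraries did not overlap, and the log2 fold change of -0.99 ± 0.09 (adjusted p = 1.6e-06) did not pass the test against 2-fold (adjusted p = 0.54). Per kb it ranked 2 of 41 in uterus and 8 of 41 in brain. Short annotated antisense genes overlap its exons by 182 and 142 bases. The strand setting of the counts is not given, so sense and antisense reads of such overlaps cannot be told apart.

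Kif5c, the other neuronal kinesin-1 heavy chain (ENSMUSG00000026764, chromosome 2, 49619298 to 49774778), stood at 60.5, 65.9, 50.9 and 202 CPM in uterus, against 1135, 1112, 1116 and 1153 CPM in brain. Uterus library 4 was well above the other uterus libraries but still far below every brain library. The log2 fold change was -3.57 ± 0.43 (adjusted p = 1.9e-05), and -4.24 without uterus library 4. Its SE was the largest of the 39 tested kinesins. Brain libraries differed by 1.69% (coefficient of variation, n = 4), uterus libraries by 75.5%.

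Of the 8 neuronal markers, 6 were highest in uterus library 4 among the uterus libraries. That library was also the highest in 16 of all 41 kinesins. Of lists described below, it was the highest in 10 of 16 dynein and dynactin genes and in 2 of 18 mitotic partners. The share over all genes is not given here, so the 6 of 8 has no background to be read against. In library 4 Snap25, a synaptic vesicle fusion protein, stood at 1.38 CPM. Syt1, a synaptic calcium sensor, stood at 1.49 CPM and Gad1, an enzyme of GABA synthesis, at 0.58 CPM. In uterus libraries 1 to 3 they stood at 0.23 to 0.33, 0.42 to 0.70 and 0.03 to 0.15 CPM, and in brain at 2323 to 2477, 1517 to 1628 and 548 to 625 CPM. Map2, also counted among the 6, stood at 189 CPM in uterus library 4 against 160 to 184 CPM in libraries 1 to 3. Rbfox3 was lowest in library 4, at 0.93 CPM against 1.01 to 1.75 CPM. Nefl, with at most 6 counts in a uterus library, was highest in library 3, at 0.15 CPM against 0.09 CPM in library 4. Kif5a was not highest in library 4, at 5.90 CPM. Of the 4 genes of the table within 500000 bases of Kif5c, Lypd6b was also highest in uterus library 4, at 2.33 CPM against 0.96, 0.96 and 0.61 CPM in libraries 1 to 3. Epc2 was at 54.5 CPM against 42.3 to 43.8 CPM, and Mbd5 and Lypd6 stood no higher in library 4 than in every other uterus library. Genes with uterus library 4 more than 2.5 times above every other uterus library numbered 16 of 8996 (0.178%) among tested genes that reach 20 CPM in a uterus library. Of these 16, 8 were under 5 CPM in every brain library: Cbr2, Col6a4, Col6a6, Dsc2, Fxyd4, P2ry14, Sprr2f and Unc5cl. The other 8 were at 9.37 CPM or more in every brain library: Kif5c itself, Atp2b2, Calb1, Dio2, Inhbb, Padi2, Ramp3 and Rasd1. The collagen gene Col6a4 stood at 888 CPM in uterus library 4 and at 192 to 208 CPM in the others, and Calb1, which encodes calbindin, at 204 CPM and at 36.7 to 55.6 CPM. These genes beyond Kif5c, and the level of 5 CPM, were chosen after the values were seen, and what library 4 shares with its Kif5c level was not tested.

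For the paralogs of a family, shares of the summed counts per kb were compared library by library. Kif5b made up 66.4 ± 12.2% of the kinesin-1 heavy chains in uterus and 8.05 ± 0.576% in brain (SD, n = 4 each). In uterus the shares were 71.9%, 69.3%, 75.9% and 48.7% in libraries 1 to 4, and in brain 8.91%, 7.77%, 7.70% and 7.82%. The organs did not overlap, and the exact two-sided permutation test gave p = 0.0286, the smallest that 4 against 4 libraries allow. The difference was 58.4 percentage points, and 64.3 points without uterus library 4. Kif5a took 2.22 ± 0.516% in uterus and 65.9 ± 1.37% in brain, while Kif5c held 31.3 ± 12.6% in uterus and 26.1 ± 1.41% in brain, with overlapping libraries. Without uterus library 4 the uterine shares were 72.4 ± 3.28% for Kif5b, 2.47 ± 0.201% for Kif5a and 25.2 ± 3.33% for Kif5c (SD, n = 3), so which organ had the higher mean Kif5c share turned on that library.

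The light chains followed the heavy chains of brain in most members. Klc1, the main light chain of neurons, stood at 106, 108, 112 and 106 CPM in uterus, against 673, 713, 720 and 717 CPM in brain (log2 fold change -2.71 ± 0.05, adjusted p = 2.1e-11). Klc2 stood at 27.8, 29.6, 29.5 and 27.3 CPM in uterus, against 244, 292, 285 and 282 CPM in brain (log2 fold change -3.27 ± 0.07, adjusted p = 3.8e-11). In both genes each brain library was several times above each uterus library. Klc2 shares 439 exon bases with an annotated antisense gene. Klc4 differed little, at 21.5 to 26.3 CPM in uterus against 28.3 to 32.5 CPM in brain (log2 fold change -0.35 ± 0.08, adjusted p = 0.0024), and it no longer passed when libraries were scaled by library size alone or by the upper quartile (adjusted p = 0.30 and 0.29).

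Klc3, a light chain best known from spermatids, was the exception, higher in uterus at 2.90, 3.29, 1.60 and 1.68 CPM, against 1.03, 1.31, 1.22 and 1.02 CPM in brain. The organs did not overlap, but the levels were low, and 744 bases of its exons overlap Ercc2 on the opposite strand. The log2 fold change was 1.04 ± 0.27 (adjusted p = 0.0047). Within the family Klc1 made up 59.9 ± 2.03% in uterus and 68.5 ± 0.936% in brain (exact permutation p = 0.0286). The difference of -8.61 points shrank to -3.30 points when counts were not divided by length. Klc4 took 22.6 ± 1.78% of the light chains in uterus and 5.05 ± 0.263% in brain. Per kb, Klc1 had the highest mean of the 41 genes in uterus, at 26.6 ± 0.739 CPM per kb. Kif5b followed at 24.7 ± 2.11 and Kif1c at 23.5 ± 0.881 CPM per kb. The means of Klc1 and Kif5b, and those of Kif5b and Kif1c, were closer than the SD of Kif5b, so their order is not settled.

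**Figure D2:**
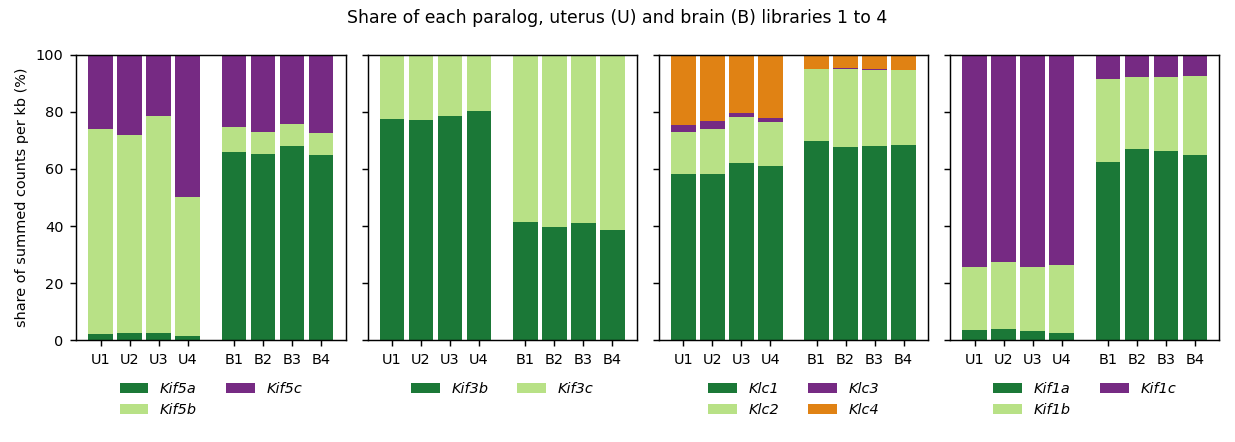
Share in percent of each paralog in the summed counts per kb of its family, as stacked bars for uterus libraries U1 to U4 on the left and brain libraries B1 to B4 on the right of each panel. Kif5b and Kif1c fill most of the uterus bars of their families and Kif5a and Kif1a most of the brain bars; U4 stands out by its Kif5c share of 49.9%.

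Kinesin-3 motors carry synaptic vesicle precursors and dense-core vesicles in neurons and other vesicles elsewhere. Kif1a, the neuronal vesicle motor (ENSMUSG00000014602, chromosome 1, 93015464 to 93101951), stood at 11.1, 11.4, 10.5 and 7.93 CPM in uterus, against 1299, 1484, 1473 and 1514 CPM in brain. Every brain library was over 100 times above every uterus library. The log2 fold change was -7.14 ± 0.14 (adjusted p = 2.5e-11), a level 141-fold lower in uterus. Kif1b, which carries mitochondria and synaptic vesicle precursors, stood at 122, 128, 129 and 134 CPM in uterus, against 1136, 1060, 1073 and 1214 CPM in brain (log2 fold change -3.13 ± 0.07, adjusted p = 3.9e-11).

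Kif1c ran the other way, though by little. It stood at 172, 163, 179 and 171 CPM in uterus, against 138, 133, 138 and 139 CPM in brain, without overlap (log2 fold change 0.32 ± 0.04, adjusted p = 6.4e-05). Within this trio Kif1a made up 3.44 ± 0.569% in uterus and 65.2 ± 1.998% in brain, and Kif1c 73.7 ± 0.934% in uterus and 7.96 ± 0.402% in brain. The exact permutation test of the Kif1a share gave p = 0.0286. Kif16b, a motor of early endosomes, was also higher in uterus, at 34.97 to 41.4 CPM against 18.4 to 21.5 CPM in brain (log2 fold change 0.95 ± 0.07, adjusted p = 4.7e-07). Kif13b, which carries signalling and scaffold proteins, was lower in uterus, at 27.4 to 30.8 CPM against 44.4 to 53.7 CPM in brain (-0.69 ± 0.08, adjusted p = 1.0e-05). Kif13a, a motor of recycling endosomes, stood at 55.9 to 58.4 CPM in uterus against 56.0 to 63.5 CPM in brain and did not pass (log2 fold change -0.04 ± 0.05, adjusted p = 0.44). Scaling by library size alone turned its log2 fold change to 0.21 and gave an adjusted p of 0.0034, so its direction depends on the scaling.

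Kinesin-2 is built on Kif3a with either Kif3b or Kif3c, joined by the adaptor Kifap3. Kif3a stood at 72.1, 53.9, 67.1 and 60.5 CPM in uterus, against 171, 170, 154 and 181 CPM in brain, and Kif3b at 48.8 to 50.7 CPM against 112 to 118 CPM. Their log2 fold changes were -1.42 ± 0.09 and -1.20 ± 0.04 (adjusted p = 1.3e-07 and 9.4e-10). Kif3c, the partner typical of neurons, differed more, at 18.6, 19.0, 18.1 and 16.3 CPM in uterus against 208, 226, 223 and 233 CPM in brain (log2 fold change -3.63 ± 0.06, adjusted p = 1.4e-11). Of the 2 alternative partners, Kif3c made up 21.6 ± 1.38% in uterus and 59.8 ± 1.33% in brain, so the more abundant partner per kb differed between the organs (exact permutation p = 0.0286). Antisense genes overlap 2617 and 588 exon bases of Kif3c. Kifap3 itself, outside the symbol rule, stood at 52.1 to 53.7 CPM in uterus against 369 to 381 CPM in brain (-2.82 ± 0.04, adjusted p = 7.8e-12). The homodimeric kinesin-2 Kif17, known for carrying glutamate receptors in dendrites, stood at 2.26 to 3.63 CPM in uterus against 24.5 to 30.7 CPM in brain (-3.34 ± 0.16, adjusted p = 1.1e-08).

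The kinesin-4 motors Kif21a and Kif21b, which restrain microtubule growth, were both lower in uterus. Kif21a stood at 14.3, 32.4, 26.4 and 19.5 CPM in uterus, against 323, 313, 324 and 325 CPM in brain, and the uterus libraries were spread over more than 2-fold while the brain libraries were nearly level (log2 fold change -3.79 ± 0.22, adjusted p = 6.2e-08). Kif21b stood at 13.5 to 17.9 CPM in uterus against 120 to 133 CPM in brain (-3.002 ± 0.09, adjusted p = 5.2e-10).

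Per kb of exon, the leading genes differed between the organs. In brain Kif5a was followed by Klc1 at 173 ± 5.41, Kif5c at 158 ± 2.68 and Kif1a at 155 ± 10.4 CPM per kb, the last 2 closer than the SD of Kif1a. In uterus Klc1, Kif5b and Kif1c were followed by Kif3a at 17.7 ± 2.21 CPM per kb. Merged exon length counts every annotated exon, so genes with long alternative ends are put low on this scale.

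Mitotic kinesins were higher in uterus. Kif11, which pushes the spindle poles apart (ENSMUSG00000012443, chromosome 19, 37376403 to 37421859), stood at 65.2, 84.995, 38.9 and 72.5 CPM in uterus, against 3.59, 3.85, 2.63 and 3.60 CPM in brain. Even the lowest uterus library was over 10 times above the highest brain library, and the log2 fold change was 4.26 ± 0.25 (adjusted p = 6.0e-08). Kif2c (ENSMUSG00000028678, chromosome 4, 117159639 to 117182639) stood at 18.7, 24.2, 10.8 and 21.4 CPM in uterus, against 0.57, 0.53, 0.21 and 0.38 CPM in brain. Its brain levels were under 1 CPM throughout, and the log2 fold change of 5.48 ± 0.34 (adjusted p = 1.0e-07) was the highest of the 39 kinesins. Kif18b, which shortens astral microtubules, followed at 12.4, 14.1, 8.22 and 14.1 CPM in uterus, against 0.51, 0.28, 0.23 and 0.26 CPM in brain (5.26 ± 0.28, adjusted p = 3.1e-08).

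The kinesins of the central spindle and cytokinesis were also higher in uterus. Kif23, the motor of the centralspindlin complex, stood at 31.6, 42.0, 16.8 and 39.6 CPM in uterus, against 2.59, 2.44, 2.54 and 2.32 CPM in brain (3.72 ± 0.27, adjusted p = 4.0e-07). Kif20a, which brings mitotic kinases to the central spindle, stood at 34.3, 38.7, 19.4 and 37.6 CPM in uterus, against 2.38, 2.33, 1.80 and 2.20 CPM in brain (3.90 ± 0.23, adjusted p = 6.6e-08). Kif20a shares 1271 exon bases with Cdc23 on the opposite strand. Kif14, which recruits citron kinase, stood at 8.09 to 16.04 CPM in uterus against 0.44 to 0.95 CPM in brain, and Kif20b at 19.3 to 33.3 CPM against 0.83 to 1.59 CPM. Their log2 fold changes were 4.13 ± 0.29 and 4.53 ± 0.24.

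The chromosome-bound and remaining spindle motors completed the set. Kif4, a motor of chromosome arms and the spindle midzone, stood at 12.7 to 27.9 CPM in uterus against 0.95 to 1.94 CPM in brain (4.00 ± 0.31, adjusted p = 5.4e-07), with 832 exon bases shared with Pdzd11 on the opposite strand. Kif15, which backs up Kif11 in the spindle, stood at 23.1 to 40.2 CPM against 1.99 to 2.35 CPM (3.99 ± 0.19, adjusted p = 1.3e-08). Kif18a, which dampens chromosome movement, and Kif22, which pushes chromosome arms outward, differed least of the 11. Kif18a stood at 5.88 to 9.30 CPM in uterus against 1.28 to 1.87 CPM in brain (2.22 ± 0.19, adjusted p = 1.1e-06). Kif22 was the most abundant mitotic kinesin of brain, at 30.4, 39.6, 23.4 and 33.7 CPM in uterus against 12.3, 13.0, 10.7 and 13.2 CPM in brain (1.37 ± 0.15, adjusted p = 9.4e-06). All 11 also passed the test against 2-fold.

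**Figure D3:**
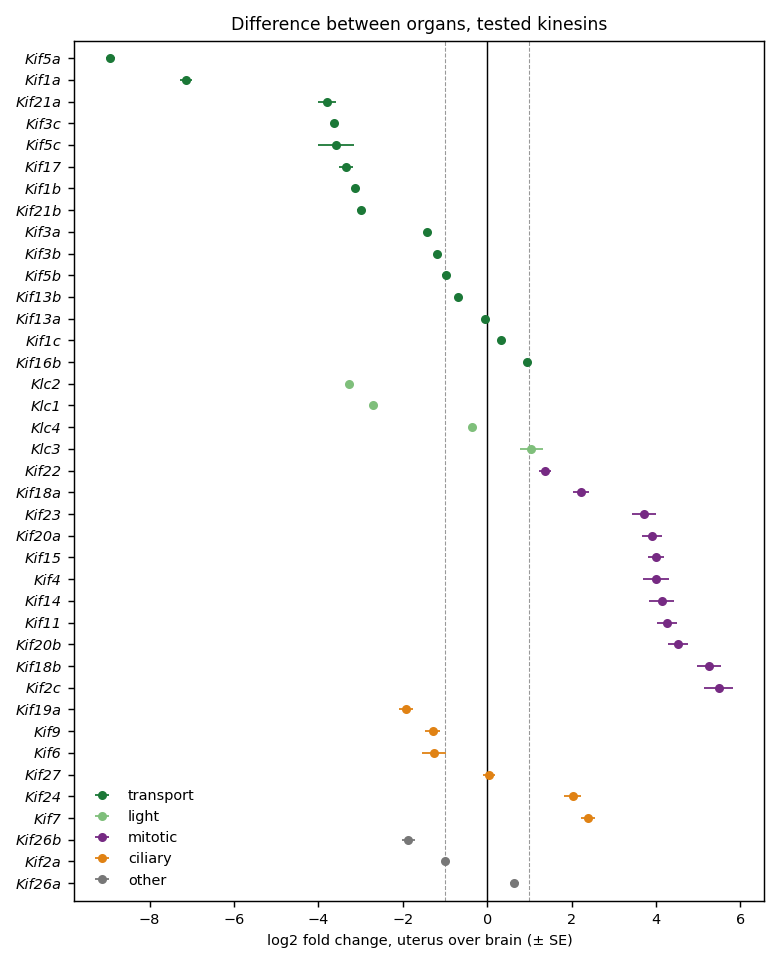
Log2 fold change, uterus over brain, of the 39 tested kinesins with its SE, coloured by role, with dashed lines at a 2-fold change. The 11 mitotic kinesins lie between 1.37 and 5.48, and the transport heavy chains run from -8.93 to 0.95.

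Across all Kif genes, mitotic kinesins made up 25.6 ± 5.48% of the summed counts per kb in uterus and 0.459 ± 0.0478% in brain (SD, n = 4 each). The shares were 26.5%, 31.5%, 18.2% and 26.2% in uterus libraries 1 to 4, against 0.489%, 0.495%, 0.391% and 0.461% in brain. The organs did not overlap, and the exact two-sided permutation test gave p = 0.0286. The difference was 25.2 percentage points and 27.6 points without uterus library 3. A share also depends on the level of the other Kif genes. The summed mitotic level itself was 298, 368, 187 and 344 CPM in uterus, against 30.2, 29.4, 25.2 and 28.3 CPM in brain.

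Uterus library 3 was the lowest uterus library in 11 of 11 mitotic kinesins. Its level was 0.446 to 0.709 times the mean of the other 3 libraries, while the median of that ratio over all genes higher in uterus was 0.982 and library 3 was the lowest in 29.8% of them. Mki67, a marker of cells in cycle, showed the same low, at 239, 272, 137 and 287 CPM in uterus libraries 1 to 4. The replication genes Pcna and Mcm2 did not, at 223, 174, 188 and 220 CPM and at 101, 76.2, 87.8 and 94.3 CPM, where library 2 was the lowest. Of the 5 markers of dividing cells described below, 3 were lowest in library 3, namely Mki67, Top2a and Ccna2. Library 3 was the lowest in 19 of all 41 kinesins, the 11 mitotic ones included. Kif6, Klc3 and Kif9, all at low levels, stood there at 0.551, 0.609 and 0.648 times the mean of the other 3, while Kif19a and Kif26b stood at 1.35 and 1.47 times. Of 18 intraflagellar transport genes, described below, 13 were lowest in library 3, with ratios of 0.833 to 1.07 over that list. The 29.8% above covers only genes higher in uterus, so it is no background for all 41 kinesins or for this list. A share over all tested genes is not given here. Without library 3 the log2 fold changes of all 11 mitotic kinesins were larger. They were 1.49 for Kif22, 2.33 for Kif18a, 3.93 for Kif23, 4.08 for Kif20a, 4.14 for Kif15, 4.19 for Kif4, 4.31 for Kif14, 4.44 for Kif11, 4.69 for Kif20b, 5.41 for Kif18b and 5.68 for Kif2c. The summed mitotic level was then 337 ± 35.6 CPM in uterus (SD, n = 3).

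**Figure D4:**
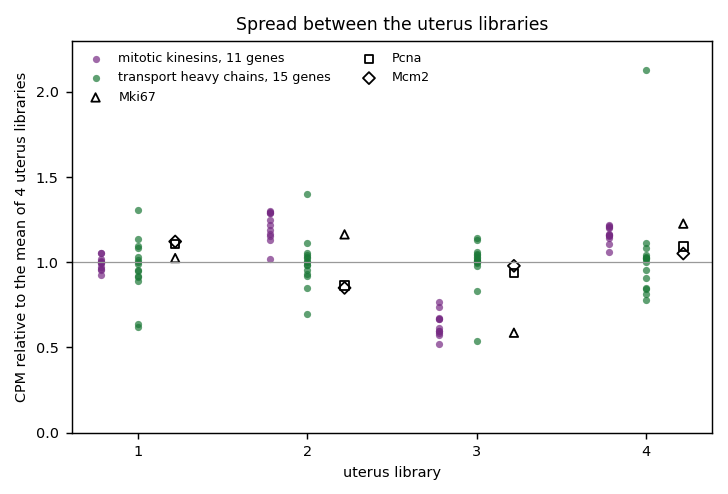
Level of each gene in uterus libraries 1 to 4 relative to its mean over these 4, for the 11 mitotic kinesins, the 15 transport heavy chains and Mki67, Pcna and Mcm2. The mitotic kinesins and Mki67 fall in library 3, Pcna and Mcm2 do not, and the transport gene far above the rest in library 4 is Kif5c.

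Markers of dividing cells differed between the organs in the same direction as the mitotic kinesins. Mki67, Top2a and Ccna2 were also lowest in uterus library 3 among the uterus libraries, while Pcna and Mcm2 were not. All 5 markers (Mki67, Top2a, Pcna, Mcm2 and Ccna2) were higher in uterus, with a summed level of 651 to 1018 CPM in uterus against 57.6 to 76.8 CPM in brain. Of the blastocyst markers Cdx2 and Pou5f1 no count was found in any uterus library, and Elf5 did not pass at 0.63 to 1.72 CPM in uterus against 0.32 to 0.79 CPM in brain. Krt7, a keratin of trophoblast that uterine epithelium also makes, stood at 32.0 to 55.2 CPM in uterus against 0.11 to 0.38 CPM in brain. Which cells of the uterus carry the mitotic kinesins cannot be read from whole organs.

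Partners of the mitotic kinesins, a list that includes the kinesins Cenpe and Kifc1, were higher in uterus in 16 of 18 cases, against 43.5% of all genes, with a median log2 fold change of 3.39. Cdk1, the kinase of mitotic entry, had a log2 fold change of 6.35 ± 0.39, Aurkb, a kinase of the chromosomal passenger complex, 6.05 ± 0.28, Ccnb1, the cyclin of Cdk1, 4.72 ± 0.32, and Birc5, another passenger subunit, 4.69 ± 0.23 (adjusted p = 8.8e-08, 8.6e-09, 2.1e-07 and 1.8e-08). Uterus library 3 was again the lowest uterus library in 18 of 18, and without it these log2 fold changes were 6.53, 6.21, 4.94 and 4.86. Cit, citron kinase, went the other way, at 14.1 to 20.3 CPM in uterus against 161 to 194 CPM in brain (-3.35 ± 0.12, adjusted p = 1.2e-09; -3.25 without uterus library 3). Anln, the actin-binding scaffold anillin, stood at 57.3, 59.9, 26.9 and 67.5 CPM in uterus, against 81.5, 77.2, 79.2 and 70.7 CPM in brain. Its log2 fold change of -0.54 ± 0.23 (adjusted p = 0.046) no longer passed without uterus library 1 (adjusted p = 0.066) or without any 1 of the brain libraries (adjusted p = 0.059 to 0.10). Without uterus library 3 it was -0.32 (adjusted p = 0.0028). Upper-quartile scaling and scaling by library size alone also ended the call (adjusted p = 0.24 and 0.23). Anillin is also made by oligodendrocytes, whose 4 markers summed to 14.4 to 16.7 CPM in uterus and 5529 to 6174 CPM in brain, and their part in the Anln level was not tested.

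Adaptors and partners of transport kinesins were higher in brain in 20 of 20 cases, against 43.6% of all genes, with a median log2 fold change of -2.38. The JNK scaffold Mapk8ip2 stood at 0.51 to 0.99 CPM in uterus against 351 to 392 CPM in brain (-8.96 ± 0.14, adjusted p = 7.6e-12). The liprin Ppfia3, a scaffold of presynaptic sites that binds Kif1a, had a log2 fold change of -7.62 ± 0.14, Grip1, which links Kif5 to glutamate receptors, -4.67 ± 0.17, and Fez1, a Kif5 adaptor of axons, -4.04 ± 0.09 (adjusted p = 1.9e-11, 1.4e-09 and 3.7e-11). The smallest difference of the 20 was -0.74 for Rhot2, which anchors motors to mitochondria.

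Cytoplasmic dynein, the motor that runs opposite to most kinesins, had 1 of 16 genes of dynein and dynactin higher in uterus, 13 higher in brain and 2 not passing, against 43.5% and 43.6% of all genes in these directions. The neuronal intermediate chain Dync1i1 stood at 3.83 to 6.76 CPM in uterus against 151 to 158 CPM in brain (-4.87 ± 0.15, adjusted p = 4.2e-10). Dynll2, Dctn1 and Pafah1b1 (LIS1) had log2 fold changes of -2.57 ± 0.08, -1.88 ± 0.06 and -1.75 ± 0.05. The light chain Dynll1 was higher in uterus, at 280 to 325 CPM against 205 to 227 CPM in brain (0.50 ± 0.06, adjusted p = 2.4e-05).

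Other genes named as kinesins or their subunits lay outside the symbol rule. Kifc2, a minus-end motor of neurons, was at 10.7 to 13.4 CPM in uterus against 374 to 401 CPM in brain (-5.09 ± 0.09, adjusted p = 1.2e-11). Kifc1, a minus-end motor of the spindle, and Cenpe, a kinetochore motor, both counted among the mitotic partners above, were higher in uterus, with log2 fold changes of 3.23 ± 0.20 and 4.69 ± 0.29 (adjusted p = 1.2e-07 and 9.6e-08), and 3.39 and 4.87 without uterus library 3.

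The ciliary kinesins divided between the organs. Kif19a, Kif9 and Kif6, kinesins of motile cilia, were lower in uterus. Kif19a, which limits ciliary length, stood at 1.23, 1.29, 1.60 and 1.03 CPM in uterus, against 4.56, 5.10, 4.76 and 5.23 CPM in brain (-1.93 ± 0.17, adjusted p = 1.3e-06). Kif9 stood at 2.05 to 3.31 CPM against 6.26 to 8.85 CPM (-1.30 ± 0.18, adjusted p = 6.6e-05) and Kif6 at 0.68 to 1.68 CPM against 2.51 to 2.91 CPM (-1.26 ± 0.29, adjusted p = 0.0020). The 6 markers of motile ciliated cells were also lower in uterus, with sums of 15.6 to 17.6 CPM against 55.9 to 68.4 CPM in brain, and their part in these differences was not tested. Foxj1, the master regulator of motile cilia, stood at 0.42 to 0.93 CPM in uterus.

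Kif7 and Kif24, which act at primary cilia and centrioles, were higher in uterus. Kif7, a regulator of Hedgehog signalling at the ciliary tip, stood at 17.7, 14.9, 17.2 and 14.6 CPM in uterus, against 3.78, 2.70, 3.47 and 2.34 CPM in brain, without overlap (2.39 ± 0.16, adjusted p = 1.9e-07). An antisense gene overlaps 877 of its exon bases. Kif24, which restrains the growth of cilia from centrioles, stood at 4.74 to 7.09 CPM against 1.04 to 1.86 CPM (2.03 ± 0.20, adjusted p = 5.0e-06), and library 3 was its lowest uterus library. Kif27, a paralog of Kif7, stood at 3.399 to 4.22 CPM in uterus against 3.32 to 3.86 CPM in brain and did not pass (0.04 ± 0.13, adjusted p = 0.76). Intraflagellar transport genes, whose trains kinesin-2 pulls along the cilium, were higher in uterus in 7 of 18 cases and in brain in 9, near the 43.5% and 43.6% of all genes, with a median log2 fold change of -0.11. Ift43 and Ttc21b were higher in uterus (1.37 ± 0.08 and 0.72 ± 0.07), and Ift22, Wdr35 and Ift57 higher in brain (-1.49 ± 0.09, -0.98 ± 0.06 and -0.96 ± 0.06).

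The remaining kinesins differed moderately. Kif2a, which trims microtubule ends in neurons and at spindle poles, stood at 55.2 to 60.7 CPM in uterus against 108 to 126 CPM in brain (-0.99 ± 0.06, adjusted p = 6.0e-08), with 1229 exon bases shared with Dimt1 on the opposite strand. It shares its family with Kif2c, which stood in the opposite direction. Kif26b and Kif26a are relatives without motor activity. Kif26b stood at 13.8, 11.9, 18.2 and 11.5 CPM in uterus, against 46.7, 47.8, 48.4 and 58.6 CPM in brain (-1.86 ± 0.15, adjusted p = 6.4e-07), with 909 exon bases shared with an antisense gene. Kif26a stood at 15.5 to 17.5 CPM in uterus against 9.01 to 11.4 CPM in brain (0.64 ± 0.10, adjusted p = 1.2e-04).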

How the data were processed

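Total RNA was sequenced after ribosomal RNA removal with a stranded kit. Per the submitters' processing notes the tools were FastQC, HISAT2 2.0.3, featureCounts and edgeR on GRCm38.p5. They do not give the annotation used, how strand was set or how multiply mapped reads were treated. The authors deposited raw counts per gene, without normalization. From them, genes were filtered with filterByExpr by organ (16074 of 19884 kept) and tested with edgeR 4.0.16 (R 4.3.3) by the quasi-likelihood F test with TMM factors of 1.07 to 1.11 in uterus and 0.907 to 0.924 in brain, two-sided, Benjamini-Hochberg over all genes at 0.05, and glmTreat against 2-fold. SE is the unshrunken log2 fold change over the square root of F. Shares used counts per kb of merged exon (GENCODE M21, GRCm38) and an exact permutation test over libraries. The members and lists, the role groups and the tests were chosen with earlier results of these data known. Every member is named. From each partner list up to 4 called genes were named, by size of change, at a level of 1 CPM or more, and up to 2 at 10 CPM or more against the list's median. Kif25 and Kif28 of the list of other kinesins were not analysed here. Symbols were unique among the members, and all 41 matched GENCODE by identifier. A search with BLAST+ 2.17.0 at 98% identity over 150 nt found no near-identical copy of a member in the table other than the overlapping genes named. The edgeR steps were also run on simulated counts in which a small set of genes differed, in both directions. Most genes differ between these organs, so that run does not test the scaling between them. Alternatives, 17 for the fold changes, were other scalings and filters, a block for replicate number, DESeq2 1.42.0, limma-voom (limma 3.58.1), an adjusted threshold of 0.01 and leaving out each library.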

Additional observations from a re-analysis of the deposited data

Results flagged for a closer look

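A library was singled out where, among 4, its gap to the nearest other library exceeded the share of the group's range given by Dixon's critical value at 95%. Of 90 groups screened, 10 were singled out this way, where chance alone gives about 1 in 20. Kif5c stood highest in uterus library 4, at 202 CPM against 50.9 to 65.9 CPM in libraries 1 to 3. Kif5a stood lowest in uterus library 1, at 5.11 CPM against 5.90 to 6.01 CPM, and Kif13b also stood lowest in uterus library 1, at 27.4 CPM against 30.6 to 30.8 CPM. Kif12 had counts in uterus library 4 alone among uterus libraries, at 0.0466 CPM, which is under the floor of 3 counts.

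In brain, library 1 was singled out in 2 genes and 1 share. Klc1 was lowest there, at 673 CPM against 713 to 720 CPM. Kif18b was highest there, at 0.513 CPM against 0.231 to 0.277 CPM. The share of Kif5b in the kinesin-1 heavy chains was highest there, at 8.91% against 7.70% to 7.82%. Kif21a was lowest in brain library 2, at 313 CPM against 323 to 325 CPM. Kif3b was highest in brain library 3, at 118 CPM against 112 to 113 CPM. Kif26b was highest in brain library 4, at 58.6 CPM against 46.7 to 48.4 CPM. The differences of these genes between the organs are larger than these gaps, apart from Kif12, which was not tested.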

How the results depend on the processing

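The counts of kinesins higher in either organ, 17 and 20, were 18 and 19 under upper-quartile scaling and library size alone, and the same as reported under the other alternatives; past 2-fold they ran from 13 to 14 and from 13 to 16. Those 2 scalings put the median over all genes at 0.27, against 0.012. Under both, Kif13a reversed to 0.21, 1 transport heavy chain passed 2-fold as higher in uterus where none did, and 1 ciliary kinesin passed 2-fold as higher in brain where 2 did. The last count was 1 to 2 when single libraries were left out, and 1 without uterus library 3, brain library 3 or brain library 4. With single libraries left out, the log2 fold change of Kif27 ran from -0.013, without uterus library 4, to 0.096. The cause was not tested.

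A block for replicate number was fitted. Deviations of same-numbered libraries correlated at r = -0.048, 0.0019, 0.083 and 0.074, so the numbers were not used as pairs, though this does not show that they mark different mice. For the shares the block cannot move the differences (25.2, 58.4, -38.2, -8.61 and -61.7 points for mitotic kinesins, Kif5b, Kif3c, Klc1 and Kif1a), and the exact sign-flip p of 0.125 is the smallest that 4 pairs allow, so it tests nothing about them. The kinesin counts with the block were 17 and 20. Levels near or under 1 CPM rest on few reads, as in brain for the 5 mitotic kinesins below 1 CPM in at least 1 library.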
